A study of Mus musculus with 24 samples.

Results

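The Nat8 family of mouse comprises small N-acetyltransferase genes that lie side by side on chromosome 6 and share sequence. The 5 genes described here are Nat8 (ENSMUSG00000030004), Nat8f1 (ENSMUSG00000057103), Nat8f2 (ENSMUSG00000033634), Nat8f4 (ENSMUSG00000068299) and Nat8f5 (ENSMUSG00000079494), out of 56941 genes in the deposited table. They were selected on measured values: the family is that of the gene chosen by its reduction in both Bmal1 knockouts, so the knockout contrasts entered the choice. The other 4 genes came with Nat8 by their shared sequence and cluster. Those contrasts are therefore given as values with no p-value, and edgeR calls in them are counted as a description only. All 5 genes passed the filter on low counts that left 20514 genes for testing. The other family genes, Nat8f3, Nat8f6, Nat8f7, Nat8l and the pseudogene Nat8b-ps, are given where the same readout applies.

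Polyadenylated RNA of mouse liver was sequenced in 24 libraries that form 8 groups of 3. WT and KO livers came from wild-type mice and from mice lacking Bmal1 in the whole body, both from crosses of Bmal1+/- parents on the C57BL/6J background. LKO livers carried Alb-Cre with Bmal1f/f, and their controls, called F, carried Bmal1f/f without Cre. Each genotype was sampled at circadian times CT2 and CT14, and the labels state neither age nor sex. In LKO the Albumin promoter drives Cre, which confines recombination largely to the hepatocyte lineage. Bmal1 encodes the partner of CLOCK in the activating complex of the circadian clock. The labels number the replicates 1 to 3 without saying whether they are separate animals, so p-values measure the spread between these samples, which may be technical.

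NAT8 is a membrane-bound enzyme of the endoplasmic reticulum that is best known from kidney proximal tubule and liver. It transfers an acetyl group from acetyl-CoA to cysteine S-conjugates, the last step in the making of mercapturic acids, through which glutathione conjugates of foreign compounds leave the body. Human NAT8 and its near copy NAT8B have also been described as lysine acetyltransferases of proteins in the lumen of the endoplasmic reticulum. The individual roles of the mouse copies Nat8f1 to Nat8f7 are less well established.

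The sequences before the annotated starts show how the copies differ from each other. The promoters of Nat8, of Nat8f5, which shared its pattern, and of the abundant copies Nat8f2 and Nat8f1 are shown, each as the 250 bases before a RefSeq start in GRCm38.p6, all on the minus strand of chromosome 6. Nat8 has 2 annotated starts, at which the windows are chr6:85836858-85837107 and chr6:85832280-85832529. The Nat8f5 window is chr6:85820973-85821222, that of Nat8f2 is chr6:85869138-85869387 and that of Nat8f1 is chr6:85915633-85915882. The files were made on GRCm39, so these coordinates were not joined to the deposited values. Capitals mark matches on either strand to the motifs named in the next paragraph.
Nat8 start 1: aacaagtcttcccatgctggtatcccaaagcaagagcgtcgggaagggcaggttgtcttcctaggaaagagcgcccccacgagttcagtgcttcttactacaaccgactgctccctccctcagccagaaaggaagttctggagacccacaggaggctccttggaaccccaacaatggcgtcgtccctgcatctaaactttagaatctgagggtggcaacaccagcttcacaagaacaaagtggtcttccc
Nat8 start 2: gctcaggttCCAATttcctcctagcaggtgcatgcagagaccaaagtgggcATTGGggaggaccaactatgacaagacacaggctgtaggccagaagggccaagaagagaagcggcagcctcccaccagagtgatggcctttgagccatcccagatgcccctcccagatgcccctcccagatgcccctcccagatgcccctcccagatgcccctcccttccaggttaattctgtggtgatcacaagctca
Nat8f5: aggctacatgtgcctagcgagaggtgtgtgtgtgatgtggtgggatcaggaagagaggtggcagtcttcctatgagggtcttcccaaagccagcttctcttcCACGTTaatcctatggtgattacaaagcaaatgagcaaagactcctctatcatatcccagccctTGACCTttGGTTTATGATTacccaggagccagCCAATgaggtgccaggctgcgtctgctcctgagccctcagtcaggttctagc
Nat8f2: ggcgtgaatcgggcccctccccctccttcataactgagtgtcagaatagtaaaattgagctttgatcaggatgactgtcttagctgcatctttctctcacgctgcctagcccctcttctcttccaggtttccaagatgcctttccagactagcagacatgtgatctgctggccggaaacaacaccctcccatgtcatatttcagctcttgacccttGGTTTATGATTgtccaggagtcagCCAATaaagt
Nat8f1: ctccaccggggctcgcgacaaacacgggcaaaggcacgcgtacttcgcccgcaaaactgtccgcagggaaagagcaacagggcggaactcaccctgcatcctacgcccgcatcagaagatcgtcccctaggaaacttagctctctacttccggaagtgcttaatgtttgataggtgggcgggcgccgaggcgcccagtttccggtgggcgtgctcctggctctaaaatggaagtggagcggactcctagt

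None of the 10 family starts held the palindromic E-box CACGTG, the element best known for CLOCK and BMAL1, which occurred in 6.02% of 32851 mouse promoter windows of the same length. None held the D-box letters TTATGTAA, present in 0.819% of windows, or the HNF4-type letters CAAAGTCCA, present in 0.384%. The E-box variant CACGTT, found in 3.85% of windows, occurred in Nat8f5 alone, at bases -148 to -143 before the start. The ROR-element core AGGTCA, in 14.02% of windows, occurred in Nat8f5 and in both starts of Nat8f4. CCAAT occurred in 33.8% of windows and in 6 of the 10 family starts. One stretch was picked after these promoters were read: GGTTTATGATT in Nat8f5 and Nat8f2, and GGTTTATAATT in Nat8f6 and Nat8f7. With any base at the eighth position, it occurred in 17 of all windows, or 0.0517%, these 4 included. All searches covered both strands, and a match describes letters only.

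The windows aligned in parts between copies. Nat8f7 and Nat8f6 shared a stretch of 242 bases at 97.5% identity, and Nat8f3 and the first start of Nat8 shared 156 bases at 98.7%, from base -156 in Nat8f3 and from -250 in Nat8. Nat8f5 aligned with Nat8f7 over 73 bases at 72.6% identity and with Nat8f2 over 60 bases at 83.3%, from base -106 and -107 of Nat8f5.

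Close copies also limit how reads can be assigned. Of all 50-base stretches in its GRCm38 annotated transcripts, Nat8 shared 5.68% with another gene, chiefly Nat8f1, and Nat8f5 shared 9.29%, chiefly with Nat8f6. The share was 14.6% for Nat8f1, chiefly with Nat8b-ps, 17.9% for Nat8f2 and 18.1% for Nat8f4, chiefly with each other. It reached 52.1% for Nat8f3, 68.0% for Nat8f6 and 82.3% for Nat8f7. The values of Nat8f3, Nat8f6 and Nat8f7 are therefore uncertain, and those of the 5 chosen genes less so.

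Total counts per library were 88995259 to 131544733. Bmal1 itself was at 26.6 to 33.8 counts scaled to library size (CPM) in the WT and F libraries at CT2 and at 6.57 to 7.91 CPM in KO and LKO, without overlap. At CT14 the control libraries were at 2.93 to 14.97 CPM and overlapped the knockout libraries at 5.46 to 7.53 CPM. Summed spermatid markers were at 18.04 to 70.7 length-scaled abundance units (TPM) in all F and LKO libraries, at 20.4 and 21.4 TPM in KO replicate 2 at CT2 and KO replicate 1 at CT14, and at most 5.0 TPM elsewhere. Summed pancreatic acinar markers were at 4871 TPM in F replicate 3 at CT2 and 1365 TPM in F replicate 3 at CT14, and at most 215 TPM in the others. The Y-linked gene Ddx3y was at 3.86 to 9.61 CPM in KO replicate 1, F replicate 3 and LKO replicate 3 at CT2, and at 25.7 to 48.5 CPM in the other 21 libraries. Summed lymphocyte markers were at 30.8 to 45.4 TPM in LKO at CT2, against 10.8 to 20.6 TPM in F at CT2. Of the 8 lymphocyte markers, 1 was called higher in LKO by edgeR as the mean of both times, and the list's median log2 difference was -0.39. Summed cholangiocyte markers were at 38.7 to 81.8 TPM in WT and 68.0 to 335 TPM in KO, highest in KO replicate 3 at CT2 (248) and at CT14 (335), and 3 of 8 were called higher in KO (median 0.79) and 1 in LKO (median 0.33). Nat8 was at 0.922 and 0.825 CPM in those 2 KO libraries, within or near the range of the other KO libraries. Of 10 hepatocyte markers, 2 were called lower in KO and 1 in LKO, and 0 higher in either. The list's median log2 difference was 0.12 in KO and 0.20 in LKO. Of all tested genes, 2.29% were called lower and 3.11% higher in KO, and 1.43% lower and 1.7% higher in LKO. The part of these markers in the results was not tested. Of 15 kidney tubule markers, Kap and Slc22a6 were at 0 in all 24 libraries. Others on that list were detected in every library, Aqp1 at 61.0 to 182 TPM, Napsa at 0.260 to 1.58 TPM and Lrp2 at 0.005 to 0.244 TPM. Alb was at 27327 to 88638 TPM. In whole liver, fewer cells of a type and less RNA per cell cannot be told apart.

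Nat8, the gene that gave the family its name, was at low levels in every knockout library. The WT libraries at CT2 gave 39.5, 26.3 and 14.3 CPM and those at CT14 30.6, 42.5 and 19.5 CPM. The KO libraries gave 0.600, 0.579 and 0.922 CPM, then 0.439, 1.09 and 0.825 CPM. The highest KO library was thus far below the lowest WT library at either time. F libraries at CT2 gave 47.9, 42.3 and 35.8 CPM and those at CT14 36.7, 26.7 and 56.3 CPM. LKO libraries at CT2 gave 1.71, 0.721 and 4.49 CPM and those at CT14 1.72, 0.908 and 0.892 CPM. LKO replicate 3 at CT2, one of the libraries low in Ddx3y, was the highest knockout library and still lay below every control.

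As the mean of both times, the log2 difference of Nat8 in KO relative to WT was -5.27 ± 0.43 (SE), and that in LKO relative to F was -4.64 ± 0.41, or 38.6-fold and 24.9-fold lower. It was -5.26 ± 0.61 at CT2 and -5.29 ± 0.61 at CT14 in KO. In LKO it was -4.19 ± 0.57 at CT2 and -5.09 ± 0.60 at CT14, and the CT2 value was -5.11 without replicate 3. Without the 2 KO libraries that carried spermatid transcripts, the KO value was -5.07. Without the 4 libraries with pancreatic transcripts or low Ddx3y, the LKO value was -4.98. The raw counts behind these values were 48 to 145 per library in KO and 91 to 473 in LKO, against 1609 to 4944 in WT and 2800 to 6129 in F.

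Nat8f5, the copy that lies next to Nat8, had the second-largest differences among the 5 genes. WT libraries at CT2 gave 21.2, 25.1 and 9.34 CPM and those at CT14 49.7, 43.97 and 29.1 CPM, and KO libraries gave 1.44, 3.90 and 1.77 CPM and 1.06, 6.68 and 1.37 CPM. F libraries at CT2 gave 28.8, 29.8 and 10.1 CPM and those at CT14 46.6, 28.3 and 30.9 CPM, and LKO libraries gave 4.73, 1.67 and 7.23 CPM and 2.42, 1.84 and 3.17 CPM. Neither knockout overlapped its control at either time, although the lowest control library, WT replicate 3 at CT2, was close to the highest LKO library. The log2 difference as the mean of both times was -3.36 ± 0.49 in KO and -3.08 ± 0.48 in LKO, or 10.2-fold and 8.46-fold lower. At CT14 the KO difference was -3.75 ± 0.70, and it was -5.07 without KO replicate 2.

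Nat8f1 was abundant in all groups, and its differences were small. WT libraries at CT2 gave 269, 351 and 326 CPM and those at CT14 227, 240 and 303 CPM, and KO libraries gave 265, 216 and 177 CPM and 174, 151 and 191 CPM. The KO libraries lay below WT within each time, at CT2 by a narrow margin. F libraries at CT2 gave 217, 190 and 262 CPM and those at CT14 194, 193 and 201 CPM, and LKO libraries gave 209, 189 and 321 CPM and 148, 130 and 131 CPM. LKO overlapped F at CT2 and lay below it at CT14. The log2 difference as the mean of both times was -0.55 ± 0.13 in KO and -0.21 ± 0.13 in LKO. The control F was itself below WT by a log2 difference of -0.45, which did not pass but is similar in size to the KO difference.

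Nat8f2 was lower in LKO only slightly and did not separate KO from WT. KO libraries at CT2 gave 1092, 811 and 1064 CPM and those at CT14 973, 1097 and 915 CPM, within or near the WT values of 1193, 1226 and 965 CPM and 936, 1004 and 939 CPM. F libraries at CT2 gave 1146, 1654 and 1320.4 CPM and those at CT14 1119, 1497 and 1276 CPM, and LKO libraries gave 1062, 934 and 909 CPM and 797, 750.1 and 749 CPM. On CPM all 6 LKO libraries lay below all 6 F libraries, and on TPM they overlapped. The log2 difference was -0.07 ± 0.11 in KO and -0.63 ± 0.11 in LKO. The control F was above WT by a log2 difference of 0.36, which did not pass.

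Nat8f4 was the least abundant of the 5 in control livers once length was taken into account. WT libraries at CT2 gave 14.8, 17.4 and 14.6 CPM and those at CT14 10.4, 11.6 and 8.15 CPM, and KO libraries gave 13.5, 8.28 and 12.8 CPM and 12.3, 14.1 and 13.4 CPM. KO thus lay below WT at CT2 and above it at CT14, with log2 differences of -0.43 ± 0.18 and 0.41 ± 0.18 that gave -0.01 ± 0.13 as their mean. F libraries at CT2 gave 16.7, 18.4 and 17.4 CPM and those at CT14 11.6, 16.1 and 14.3 CPM, and LKO libraries gave 11.04, 12.2 and 13.4 CPM and 11.6, 9.25 and 8.61 CPM. The LKO difference was -0.52 ± 0.18 at CT2, without overlap, and -0.51 ± 0.18 at CT14, where the highest LKO library reached the lowest F library.

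**Figure D1:**
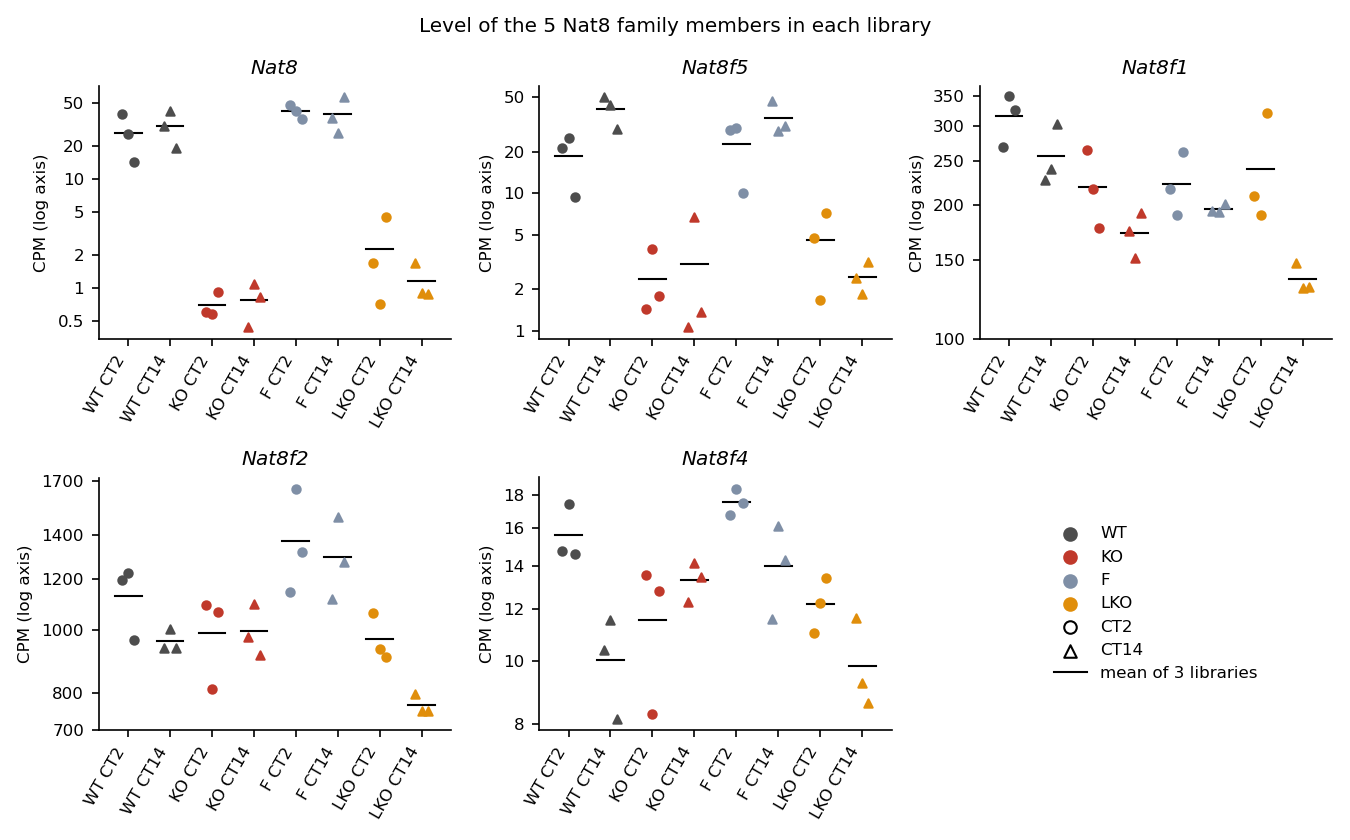
Expression of the 5 Nat8 family genes in each of 24 liver libraries, in CPM on a log axis with 1 panel per gene. Circles are CT2 libraries, triangles are CT14 libraries and lines are means of 3. Nat8 and Nat8f5 in KO and LKO lie below all WT and F libraries, and all 6 LKO libraries of Nat8f2 lie below all 6 F libraries by a smaller step.

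By edgeR at an adjusted p under 0.05, the rule that defines a called gene here, 3 of the 5 genes were lower in KO than in WT as the mean of both times, where 2.29% of all tested genes were. In LKO against F, 4 of the 5 were lower, against 1.43% of all genes. These contrasts chose the family, so nothing is read from the counts. By time, 1 was lower in KO at CT2 (0.19% of all genes) and 2 at CT14 (2.15%). In LKO, 1 was lower at CT2 (0.127%) and 3 at CT14 (0.912%). No member was called higher in either knockout as the mean of both times, where 3.11% of all genes were in KO and 1.7% in LKO. The median log2 difference of the 5 was -0.55 in KO and -0.63 in LKO, against 0.01 and -0.01 over all tested genes. All 6 knockout libraries lay below all 6 controls for Nat8 and Nat8f5 in KO, as for 1.2% of all genes, and for Nat8, Nat8f5 and Nat8f2 in LKO, as for 0.653%. Within a time and on CPM, 4 members lay wholly below WT in KO at CT2 (6.94% of all genes did), and at CT14 3 lay below (12.5%) and Nat8f4 above (13.4%). In LKO, 4 lay wholly below F at CT2 (4.46%) and 4 at CT14 (11.7%). On TPM these 4 became 3 in KO at CT2, where Nat8f4 overlapped, 3 in LKO at CT2, where Nat8f2 did, and 3 in LKO at CT14, where Nat8f1 did, and in KO at CT14 Nat8f2 lay above WT as well.

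The copies outside the 5 showed both patterns. Raw counts of Nat8f6 were 98 to 622 in WT and 2 to 69 in KO, and 21 to 669 in F and 7 to 45 in LKO. Its log2 difference was -3.22 ± 0.61 in KO and -3.17 ± 0.61 in LKO. Nat8f3 had 21 to 188 counts in WT and 0 to 11 in KO, and 5 to 122 in F and 5 to 27 in LKO, with differences of -3.95 ± 0.66 and -1.80 ± 0.60. For Nat8f7, WT libraries had 58 to 437 counts, and KO libraries had 0, 15 and 6 at CT2 and 1, 0 and 0 at CT14. F libraries had 4 to 139 counts of Nat8f7 and LKO libraries 9 to 14. With counts this near 0 the fitted fold change of Nat8f7 in KO depends on the fit and is not given. On the log2(TPM + 1) scale, which shrinks low genes, the KO differences were between -0.66 for Nat8f3 and -1.49 for Nat8f6. The pseudogene Nat8b-ps was at 3.29 to 6.50 CPM in WT and 2.197 to 4.01 CPM in KO, with log2 differences of -0.68 ± 0.21 in KO and -0.27 ± 0.21 in LKO. Nat8l, a relative elsewhere in the genome whose product makes N-acetylaspartate, was at most at 1.06 CPM in any library.

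In reference gene order, the genes with the larger differences formed a run. Nat8f7, Nat8f3, Nat8f6, Nat8f5 and Nat8 are consecutive among the family genes. Nat8f6, Nat8f5 and Nat8 had log2 differences of -3.08 or lower in both knockouts. Of these, Nat8f6 overlapped F in LKO at CT2, and its LKO difference ranged from -3.62 to -1.24 over the alternative fits. Nat8f3 and Nat8f7 are less certain in LKO, where on log2(TPM + 1) they were at -0.33 and -0.49. Nat8f2, Nat8f4 and Nat8f1 follow on the other side of Nat8, with differences between -0.63 and -0.01. Of the 20 tested genes nearest to the cluster, 10 on each side, none was called by edgeR in either knockout. Their log2 differences ranged from -0.66 to 0.44 in KO and from -0.43 to 0.46 in LKO. Some of these neighbours are pseudogenes too imprecise to judge. In KO the SE was 0.60 for Npm3-ps1, which gave the -0.66, and 1.02 for Gm7542, and that of Spr-ps1 was too large to use. Tprkb, which lies beside Nat8f1 and encodes a subunit of the tRNA-modifying KEOPS complex, was at -0.14 in KO and 0.09 in LKO.

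**Figure D2:**
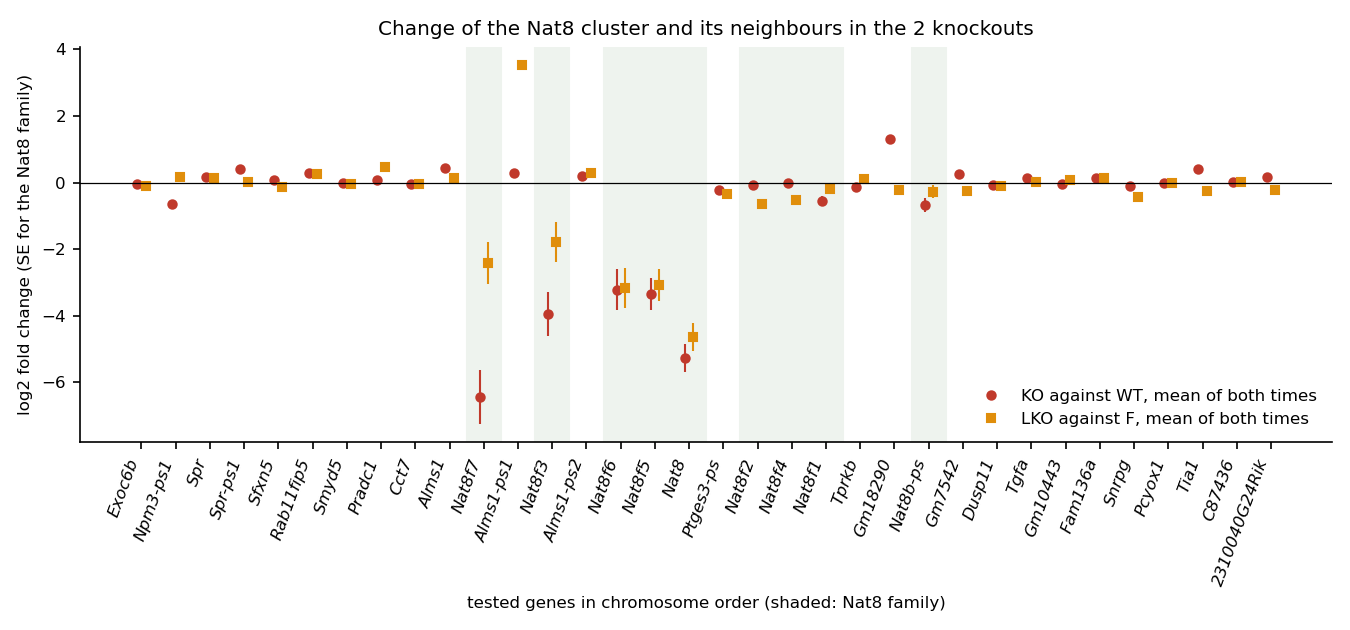
Log2 fold change of the tested genes in their order on chromosome 6 across the Nat8 cluster. Red circles are KO against WT and orange squares LKO against F, each as the mean of both times, and bars are SE for the shaded family genes only. The family genes from Nat8f7 to Nat8 lie below 0, the KO point of Nat8f7 depending on the fit of counts near 0, and those from Nat8f2 to Nat8f1 near it, and the 2 points far above 0 outside the shading are pseudogenes that were not called.

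Levels can be compared between copies on the TPM scale, which accounts for transcript length. In WT, Nat8f2 was at 500.3 ± 65.9 TPM (SD, n = 6) and Nat8f1 at 464 ± 95.2 TPM, and these neighbours did not differ beyond their spread. Nat8f5 at 47.0 ± 22.7 TPM and Nat8 at 40.0 ± 13.7 TPM came next, again within their spread, and Nat8f4 was lowest at 6.81 ± 1.97 TPM. In F the order was Nat8f2 at 641 ± 104 TPM, Nat8f1 at 338 ± 55.4, Nat8 at 57.9 ± 15.9, Nat8f5 at 46.1 ± 16.5 and Nat8f4 at 8.35 ± 1.49. In F, Nat8f2 was above Nat8f1 in 6 of 6 libraries, and in WT in 4 of 6.

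The lower end of that order was different in the knockouts. KO livers had Nat8f2 at 537 ± 69.8 TPM, Nat8f1 at 351 ± 55.5, Nat8f4 at 7.41 ± 1.25, Nat8f5 at 5.05 ± 4.32 and Nat8 at 1.19 ± 0.455. LKO livers had Nat8f2 at 482 ± 73.2 TPM, Nat8f1 at 345 ± 110.3, Nat8f4 at 6.78 ± 1.07, Nat8f5 at 6.37 ± 3.44 and Nat8 at 2.74 ± 1.99. Nat8 was above Nat8f4 in 12 of 12 control libraries and in 0 of 12 knockout libraries. Nat8f4 and Nat8f5 did not differ beyond their spread in either knockout. Nat8f2 and Nat8f1 were the most abundant pair in all genotypes.

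Nat8f2 and Nat8f1 made up most of the family's RNA, so the summed level differed less than Nat8 or Nat8f5 did. The 5 genes summed to 1154 ± 83.9 TPM (SD, n = 3) in WT and 944 ± 45.8 in KO at CT2, and to 963 ± 58.7 and 860 ± 72.4 at CT14. F was at 1131 ± 59.5 and LKO at 981 ± 36.9 TPM at CT2, and the values were 1052 ± 145 and 703 ± 58.0 at CT14. The knockout libraries lay wholly below their controls at CT2 in KO and LKO and at CT14 in LKO, and overlapped them at CT14 in KO. Nat8 and Nat8f5 together made up 5.92% of the sum in WT at CT2 and 11.1% at CT14, and 0.596% and 0.767% in KO. They made up 8.61% and 10.8% in F, and 1.16% and 0.941% in LKO. Counted as 1 feature, the 5 genes had a log2 difference of -0.22 in KO and -0.62 in LKO. This fit summed counts, which unlike TPM are not divided by transcript length and so give the long Nat8f2 more weight.

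**Figure D3:**
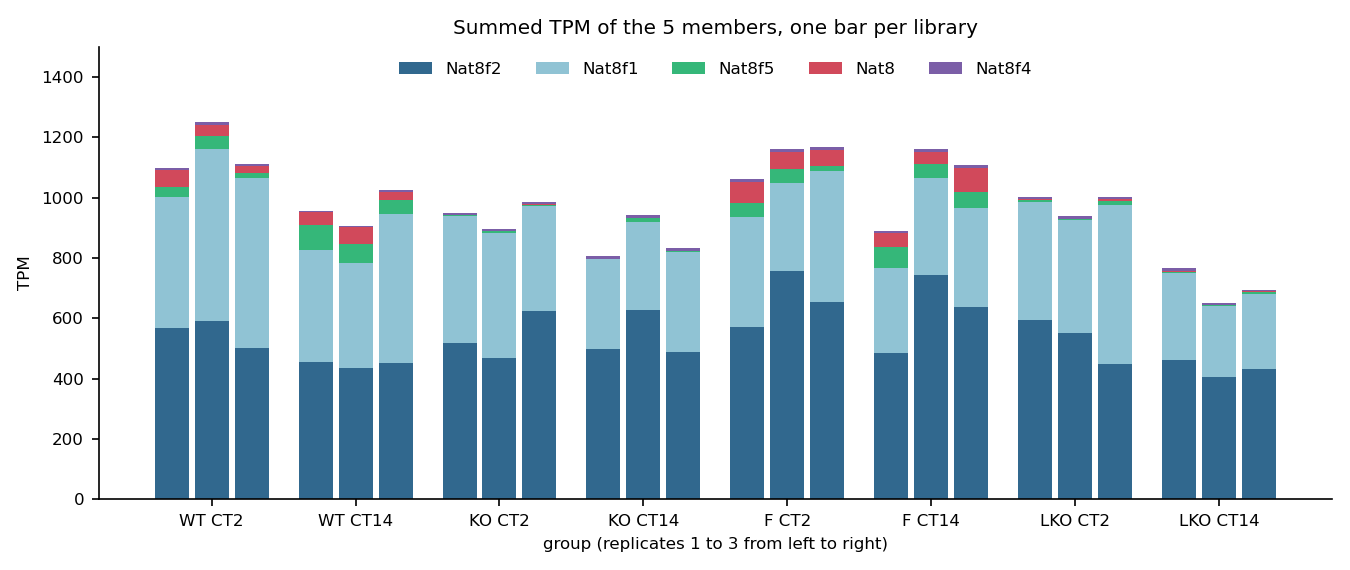
Summed TPM of the 5 Nat8 family genes, with 1 stacked bar for each of 24 libraries and 1 colour for each gene. Nat8f2 and Nat8f1 fill most of every bar, and the segments of Nat8 and Nat8f5 are visible in WT and F and thin in KO and LKO.

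The comparison of CT14 with CT2 within a genotype did not enter the choice of the family and was tested. By edgeR, none of the 5 genes passed in WT, where 2.54% of all tested genes did, none in F (2.66%) and none in KO, where 0% did. In LKO, 1 of the 5 passed, Nat8f1, with a log2 difference of -0.82 ± 0.19 (adjusted p = 0.0480) where 0.405% of all genes were called lower and 0.848% in either direction. In KO no member separated the times on CPM, as 3.54% of all genes did downwards and 4.09% upwards, but on TPM Nat8f1 was wholly lower at CT14. All 3 LKO libraries of Nat8f1 at CT14, at 148, 130 and 131 CPM, lay below the 3 at CT2, as for 10.3% of all genes. The LKO libraries of Nat8f2 separated likewise on CPM but not on TPM, at a log2 difference of -0.34 ± 0.16 that did not pass (adjusted p = 0.399). Nat8 in LKO was at -0.97 ± 0.52 and Nat8f5 at -0.87 ± 0.64, also without passing (adjusted p = 0.491 and 0.683). That call was lost in each of 6 fits with 1 library left out, where the difference ranged from -0.56, without LKO replicate 3 at CT2, to -0.96. It was kept with DESeq2, whose adjusted p was 0.00469, and over all alternatives the adjusted p ranged from 0.00469 to 0.229.

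In WT, the small copies differed in opposite directions without passing the edgeR test over all genes. Nat8f4 was at -0.63 ± 0.18 (adjusted p = 0.0768) with all CT14 libraries below all CT2 libraries, as for 10.5% of all genes. Nat8f5 was at 1.14 ± 0.63 (adjusted p = 0.521) with all CT14 libraries above, also as for 10.5%. Nat8f6 was at 1.82 ± 0.80 and Nat8f3 at 1.65 ± 0.82 (adjusted p = 0.342 and 0.430). Nat8 was at 0.21 ± 0.50 (adjusted p = 0.975) and varied more within a time than between times. At an unadjusted p under 0.05, 1 of the 5 members passed in WT, 0 in KO, 0 in F and 2 in LKO, and DESeq2 called 1, 0, 0 and 1. The authors' deposited table gives adjusted p-values of 0.0129 for Nat8f5, 0.0212 for Nat8f4, 0.000165 for Nat8f6 and 0.0259 for Nat8f3 in WT, where 4.1% of its genes are lower and 3.91% higher at the same threshold.

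F gave a similar set of values with none called by edgeR. Nat8f5 was at 0.62 ± 0.63, Nat8f3 at 1.86 ± 0.83, Nat8f6 at 1.74 ± 0.81 and Nat8f4 at -0.32 ± 0.18 (adjusted p = 0.726, 0.281, 0.307 and 0.427). The CT14 libraries of Nat8f4 lay below all CT2 libraries in F, as for 9.2% of all genes. Nat8 was at -0.07 ± 0.50 (adjusted p = 0.976).

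The difference of the time effects between a knockout and its control was tested too, and edgeR called none of the 5 in either pair. The closest were Nat8f4 at 0.84 ± 0.26 between KO and WT (adjusted p = 0.192) and Nat8f1 at -0.63 ± 0.27 between LKO and F (adjusted p = 0.721). Of all tested genes, 0.799% passed in the KO pair and 0.112% in the LKO pair. At an unadjusted p under 0.05, 1 member passed in each, and DESeq2 called 0.

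**Figure D4:**
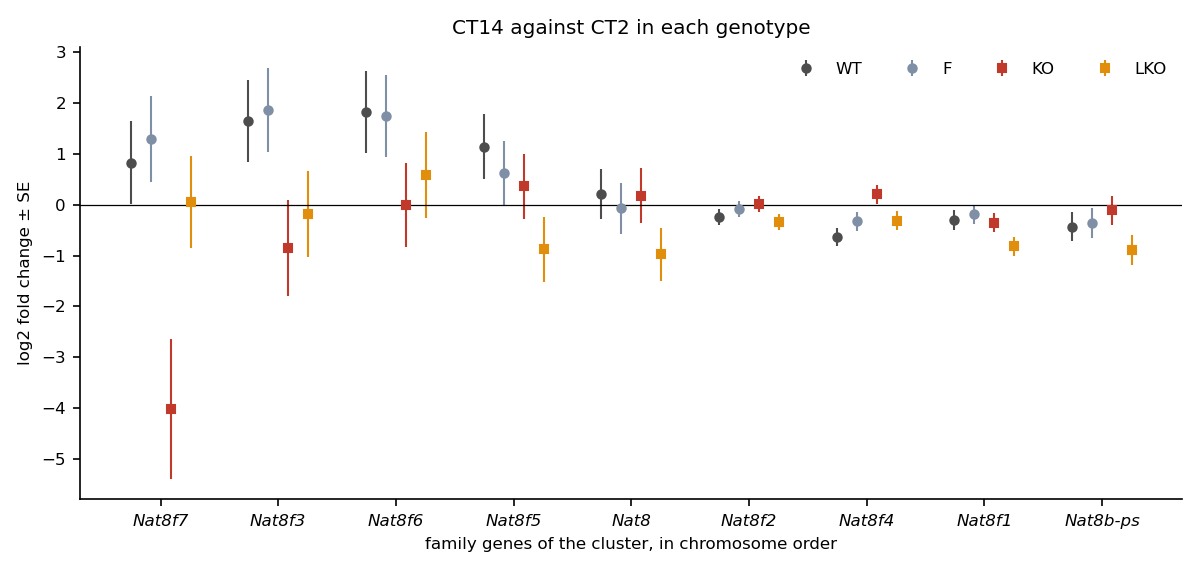
Log2 fold change of CT14 against CT2 with its SE for the 9 family genes of the cluster, in WT, KO, F and LKO. Nat8f1 in LKO is the only one of the 5 chosen genes that passed the edgeR test over all genes, at -0.82 ± 0.19.

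The 2 control genotypes were compared as well, although their libraries had entered the choice. By edgeR, none of the 5 genes differed between F and WT as the mean of both times, where 2.54% of all tested genes did. Nat8f1 was lower in F by a log2 difference of -0.45 ± 0.13 (adjusted p = 0.0861) and Nat8f2 was higher by 0.36 ± 0.11 (adjusted p = 0.0985), neither past the threshold. Nat8f4 was at 0.32 ± 0.13 (adjusted p = 0.233) and Nat8 at 0.51 ± 0.35 (adjusted p = 0.594). At an unadjusted p under 0.05, 3 of the 5 passed, and DESeq2 called 1. On TPM, mean Nat8f1 was 464 in WT against 338 in F, 351 in KO and 345 in LKO. Mean Nat8f2 was 641 in F against 500.3 in WT, 537 in KO and 482 in LKO. The part of such control differences in the small knockout differences of these 2 genes was not tested.

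Among the members, Nat8 and Nat8f5 had the most similar pattern over the 24 libraries, with Pearson r = 0.937 of log2 CPM. Nat8f2 and Nat8f4 were at r = 0.796. Outside the 5, Nat8f5 was at 0.903 with Nat8f6, and Nat8f1 at 0.950 with Nat8b-ps, which are pairs that share sequence. These points share library and genotype, so the coefficients describe these libraries only.

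The genes outside the family most like Nat8 were Ppp1r1b at r = 0.940, Slc13a2 at 0.939, Il17rb at 0.931, Cyp2d40 at 0.912, Gm19522 at 0.898 and Hspb1 at 0.892. Ppp1r1b encodes the phosphatase inhibitor DARPP-32, Slc13a2 a dicarboxylate carrier and Hspb1 a small heat shock protein. Their log2 differences in KO and LKO were -2.25 and -2.08 for Ppp1r1b, -2.70 and -1.87 for Slc13a2, and -4.78 and -3.30 for Gm19522. As the mean of both times these were smaller than those of Nat8. Nat8 was chosen for its reduction, so nothing is read from that order. In KO at CT14, Gm19522 was at -5.99 ± 0.54 and Nat8 at -5.29 ± 0.61. Nat8f5 was most like Slc13a4 (0.916), Ces1d (0.907) and Col27a1 (0.902), Nat8f1 like Tmem86b (0.831), Fxyd1 (0.811) and H2az2 (0.792), and Nat8f2 like Sft2d1rt (0.792), Arpin (0.765) and Steap2 (0.744). For Nat8f4 they were Rab3b (0.798), Arpin (0.775) and Cd207 (0.753). On TPM, 5 of the 6 genes named for Nat8 were named again, but 0 of the 3 for Nat8f2.

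The other mercapturate and glutathione genes showed few calls. Of 24 tested genes of a list of 27, 2 were higher and 1 lower in KO, and 0 were higher and 1 lower in LKO, as the mean of both times by edgeR. All genes were at the shares given above. The list's median log2 difference was -0.06 in KO and -0.15 in LKO. Ggct, which encodes gamma-glutamylcyclotransferase, an enzyme of glutathione breakdown, rose by 1.09 ± 0.20 in KO (adjusted p = 0.00154). Slc3a1, which encodes a subunit of the cystine transporter, was higher in KO by 0.75 ± 0.21 (adjusted p = 0.0442) and lower in LKO by -1.08 ± 0.22 (adjusted p = 0.00589). At CT14 alone its KO difference was 1.43 ± 0.31 (adjusted p = 0.00664), and at CT2 no gene of the list was called in KO. Kyat3, a cysteine conjugate beta-lyase that uses the same substrates as NAT8, was lower in KO by -0.57 ± 0.15 (adjusted p = 0.0265). The KO calls of Slc3a1 and Kyat3 over both times were lost in 9 and 6 of 12 fits with 1 library left out.

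The glutathione S-transferases, which make the conjugates, went in both directions. Of 24 tested, 5 were higher and 4 lower in KO, and 6 were higher and 4 lower in LKO, by edgeR, with median log2 differences of 0.11 and -0.14. Gstm2, a cytosolic mu-class enzyme, was at 59.6 to 84.6 CPM in WT and 267 to 455 in KO, and at 30.6 to 94.7 in F and 229 to 617 in LKO, and it rose by 2.37 ± 0.21 (adjusted p = 3.87e-07) and 2.56 ± 0.21 (1.95e-07). Gstm3 rose by 2.10 ± 0.30 and 2.74 ± 0.30 (adjusted p = 0.000168 and 1.7e-05) and Gstm6 by 1.37 ± 0.19 and 1.95 ± 0.19 (0.000104 and 2.34e-06). In KO, the alpha-class genes Gsta13, Gsta1 and Gsta2 fell, with log2 differences of -2.88 ± 0.68, -2.59 ± 0.57 and -1.93 ± 0.43 (adjusted p = 0.0143, 0.00932 and 0.0117). Gstm7 rose by 1.14 ± 0.14 in KO and 1.11 ± 0.14 in LKO (adjusted p = 3.52e-05 and 6.43e-05). Gstm1 rose by 0.98 ± 0.27 in KO and 1.45 ± 0.27 in LKO (adjusted p = 0.0365 and 0.00387). Its KO call was lost in 9 of 12 fits with 1 library left out. In LKO, Mgst3 was at -1.28 ± 0.28 (adjusted p = 0.0115). These classes hold near-identical copies, so the split of reads between them is uncertain.

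Calls in the remaining lists are given by edgeR as the mean of both times. Of all tested genes, 2.29% were called lower and 3.11% higher in KO, and 1.43% lower and 1.7% higher in LKO. Of 6 genes of acetyl-CoA supply and acetylation in the endoplasmic reticulum, 1 was higher in KO, the citrate carrier gene Slc13a5 at 1.42 ± 0.41 (adjusted p = 0.0450), and 0 were called in LKO. Of 27 tested genes of a list of acetyltransferases and related acyltransferases outside the family, 1 was lower in KO and 0 in LKO. That gene was Keg1, an acyltransferase-like gene, at -1.12 ± 0.29 (adjusted p = 0.0278). Of 19 liver transcription factor genes, 2 were lower in KO, Foxa1 at -0.77 ± 0.17 and Nr1i2 at -0.41 ± 0.11 (adjusted p = 0.0108 and 0.0265), and 0 of the list were called in LKO. Both were also lower in the control F than in WT by edgeR, at -0.79 ± 0.17 and -0.40 ± 0.11 (adjusted p = 0.0197 and 0.0469). Foxa1 was at 19.5 to 24.5 CPM in WT, 9.8 to 16.5 in KO, 9.6 to 15.4 in F and 10.5 to 20.1 in LKO. Nr1i2 was at 51.8 to 105.7 CPM in WT, 55.4 to 64.0 in KO, 37.1 to 88.25 in F and 41.2 to 64.1 in LKO. At CT14 alone its KO difference was -0.85 ± 0.15 (adjusted p = 0.00139). Its CT14 level exceeded CT2 by 0.86 ± 0.15 in WT and 0.95 ± 0.15 in F (adjusted p = 0.00199 and 0.00129). The part of the control difference in these KO values was not tested. With 1 library left out, the KO calls of Slc13a5, Keg1 and Nr1i2 over both times were lost in 9, 8 and 7 of 12 fits. That of Foxa1 was lost in 0.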

How the data were processed

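Estimated counts and TPM per gene were made by the authors and deposited for 24 libraries; the submitters' processing notes name fastp 0.23.2, HISAT2 2.2.1, StringTie 1.3.1 and GRCm39. Neither the annotation release nor the strand setting of the counting, nor how shared reads were counted, is stated in those notes or the labels. The deposited tables of the authors' comparisons also hold log2 fold changes, p-values, a mean normalized signal and a Wald score, of which only adjusted p-values are printed.

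Low deposited counts pile up at multiples of 4, by a median of 1.31 times their neighbours, so a count may stand for more than a whole fragment; dividing all counts by 4 was an alternative. Counts were rounded, filtered with edgeR 4.0.16 (minimum count 10, minimum total 15), scaled by TMM and fitted over all 8 groups with the quasi-likelihood test in R 4.3.3, with Benjamini-Hochberg adjustment over 20514 genes at 0.05. CPM are scaled by TMM. The SE is the absolute log2 fold change divided by the square root of F. limma 3.58.1 and DESeq2 1.42.0 served as alternatives. The steps were tested on simulated data. On log2(TPM + 0.1), the median of all genes was shifted by up to 0.22 between LKO and F.

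The 5 genes and all lists were chosen with earlier results of these data known. The text names the 5 genes, Bmal1, other family genes with counts, up to 6 called genes per list with the largest change, called genes among the 10 tested neighbours on each side, and the genes most correlated with each member (6 for Nat8, 3 for the others; log2 CPM with prior count 2). Promoters were read from RefSeq tables with Python 3.11.15 and aligned with Biopython 1.88. One call in the liver transcription factor list is not reported here.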

Additional observations from a re-analysis of the deposited data

Results flagged for a closer look

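The time effect of Bmal1, the deleted gene, differed between KO and WT. CT14 against CT2 was at a log2 difference of -0.06 in KO and -2.45 in WT, which differ by 2.39 ± 0.50 (edgeR, adjusted p = 0.0215). As Bmal1 was altered by design, this is read only as a check of the labels. The same difference of time effects between LKO and F was not called for Bmal1.

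Nat8f4 had time differences of opposite sign in the 2 knockouts, neither of which passed the edgeR test. Its log2 difference between CT14 and CT2 was 0.20 in KO, where all 3 libraries at CT14 were above the mean at CT2, and -0.31 in LKO, where all 3 were below it. In both knockouts the libraries of the 2 times overlapped on CPM and on TPM, and the KO mean at CT2 included replicate 2 at 8.28 CPM. The 2 log2 differences lie 0.52 apart, and the difference between them was not tested.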

How the results depend on the processing

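Leaving out 1 library at a time, the number of the 5 genes called lower stayed at 2 to 3 in KO and 3 to 4 in LKO as the mean of both times, and at 1 to 3 in LKO at CT14, where it was 1 without LKO replicate 2. In KO at CT2 the number was 1 and became 2 with counts divided by 4, without robust fitting, with limma-trend on log2(TPM + 0.1) and on log2(TPM + 1), with DESeq2 and without the 2 KO libraries with spermatid transcripts. With only the groups of the comparison fitted, it was 1 rather than 2 in KO at CT14 and 0 rather than 1 in LKO at CT2, where DESeq2 gave 2. For CT14 against CT2, DESeq2 called 1 rather than 0 in WT. The LKO time call (1) became 0 with RLE size factors, no filter, no robust fitting, the replicate block, limma-trend on log2(TPM + 0.1), only the groups compared, and without the 4 libraries with pancreatic transcripts or low Ddx3y, and was 0 to 0 in the 6 fits that left out a library. F against WT gave 1 rather than 0 with DESeq2 and without those 4 libraries. No direction of a called result reversed. The cause of these differences was not tested.

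Samples with the same replicate number did not deviate together (mean correlation 0.0014 over 84 pairs, 5 of them over 0.1), so the numbers are not taken as pairs, and the replicate block left the other 12 counts as they were. The KO difference of Nat8 ranged from -5.43 to -4.18 and the LKO difference from -5.10 to -4.07 over the alternatives. The lower ends of Nat8 and Nat8f5 rest on the fewest counts per library, which limits their precision.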

Other observations

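Values within groups, chosen after the data were seen, added one pattern. The 3 libraries low in Ddx3y, KO replicate 1, F replicate 3 and LKO replicate 3 at CT2, had the highest Nat8f1 of their groups, at 265, 262 and 321 CPM, and the highest Nat8b-ps, at 4.01, 4.36 and 5.30 CPM. Nat8f5 was lowest of its group in the first 2 of them and highest in LKO replicate 3. Without LKO replicate 3 at CT2, the LKO time difference of Nat8f1 was -0.56 in place of -0.82. Without the 4 libraries with pancreatic transcripts or low Ddx3y, the KO difference of Nat8f1 was -0.62 and the LKO difference -0.26, as the mean of both times.

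Deviations from the group means over the 24 libraries were compared for all 10 pairs of the 5 genes. Nat8f2 and Nat8f4, which share sequence, were correlated at Pearson r = 0.62 (permutation p = 0.00351, adjusted p = 0.0351) and Spearman rho = 0.556 (adjusted p = 0.113), and at r = 0.551 without the 2 libraries farthest from the median. Nat8 and Nat8f5 were at r = 0.62 (permutation p = 0.0144, adjusted p = 0.0718) and rho = 0.539 (adjusted p = 0.113), and at r = 0.492 without the 2 farthest libraries.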
